A study of Mus musculus with 47 samples.

Results

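The clustered protocadherins are 58 of the 45706 genes in the RNA-seq tables analysed here, taken by symbol: Pcdha1 to Pcdha12, Pcdhac1 and Pcdhac2 (alpha cluster, 14 gene IDs), Pcdhb1 to Pcdhb22 (beta cluster, 22) and Pcdhga1 to Pcdhga12, Pcdhgb1 to Pcdhgb8 and Pcdhgc3 to Pcdhgc5 (gamma cluster, 22). The 58 IDs carry 57 symbols, because Pcdha11 is listed under 2 IDs. Pcdha10 and Pcdhgb3 were not analysed here. Protocadherins are cadherin-family adhesion molecules of the plasma membrane, and those of the clusters bind copies of themselves on the neighbouring cell. In neurons each cell transcribes a different mixture of them from alternative promoters, which gives its surface an identity used in self-recognition of dendrites and axons. Alpha and gamma genes each place a variable first exon, which codes for the extracellular domain, in front of constant exons shared by the whole cluster, whereas beta genes are single exons. The C-type members (Pcdhac1, Pcdhac2, Pcdhgc3, Pcdhgc4 and Pcdhgc5) lie at the downstream end of their clusters and are chosen by other rules than the alternate members.

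C2C12 is a mouse myoblast line that fuses into multinucleated myotubes when serum is withdrawn. Its puromycin-selected derivatives used here carried a doxycycline-inducible (dox) transgene inserted by PiggyBac transposition: iMyoD1 (the myogenic transcription factor MyoD1), iCdh23 (the atypical cadherin Cdh23) and iMcam (the immunoglobulin-family adhesion molecule Mcam). The authors describe iMyoD1 as polyclonal. The 16 groups are 8 pairs of cultures given 1 µg/mL dox or vehicle, and differentiation began together with the dox except at 0 h. The 0 h cells were not differentiated and stayed in growth medium for 24 h of dox or vehicle. The iMyoD1 line was sampled as whole cultures at 0, 24, 48 and 120 h, and at 120 h also as a myoblast-enriched fraction (the flow-through of a cell strainer) and a myotube-enriched fraction (the material it held back). The iCdh23 and iMcam lines were sampled at 48 h. There were 3 biological replicates per group, except 2 with dox in the myoblast-enriched fraction (replicates 2 and 3), 47 libraries in all.

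The libraries held 15066338 to 50950674 estimated counts. Levels are given as CPM (counts scaled to a common library size), or as CPM per kilobase of transcript where genes are set beside each other, and 3 counts, taken as the floor, stand for 0.0589 to 0.199 CPM. The 0 and 24 h groups, the 48 and 120 h whole cultures, and the other lines with the fractions came in 3 separate deposited tables, so a difference between tables and a difference between those groups cannot be told apart. Endogenous and transgenic Myod1 RNA are not separated in the counts, and in the iMyoD1 line Myod1 was not raised in step with the dox labels: it averaged 188 CPM in the libraries labelled with dox against 178 without at 0 h, 117 against 135 at 24 h, 306 against 388 at 48 h and 92.0 against 280 at 120 h. In the same libraries Mcam (16.9 against 2.53 CPM at 24 h, 33.6 against 1.87 at 120 h) and Cdh23 (3.32 against 0.26, 11.8 against 6.85) were above those without dox in every library at all 4 times. Cdh23 averaged 486 CPM with dox against 389 without in iCdh23, with overlapping ranges, and Mcam 71.3 against 18.1 in iMcam. The 9 muscle markers were all detected, with a summed level of 271 to 22303 CPM over libraries. Of 8 neuronal markers 7 were detected (summed 19.7 to 381 CPM, Rbfox3 at 3 counts or fewer everywhere), of 4 glial markers 2 (Olig2 and Sox10 were not), and the endothelial and blood markers summed to at most 0.929 and 0.237 CPM.

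All 58 genes lie on the plus strand of mouse chromosome 18 (mm10). The alpha cluster spans chr18:36930184-37187661, the beta cluster chr18:37264938-37524479 and the gamma cluster chr18:37661793-37841873. The sharing of exons limits what a short read can tell. Alpha transcripts have 2860 exonic bases in common, and a median of 62.2% of their 31-base words (stretches of 31 bases) recur in another member of the family. In the gamma cluster 375 exonic bases are common to all and the median is 46.0%, while in the 22 single-exon beta genes it is 11.8%. Alpha and gamma values therefore rest on how salmon, the quantification program, divided shared reads, and beta values depend on this least. The library kit was not stated to keep strand, so reads from antisense genes over Pcdhb12 (Gm37446), the first exon of Pcdhgc3 (BC037039) and Pcdhga1 (Gm37118) cannot be told apart from the members' own. In bulk RNA, fewer cells of a type and less RNA per cell cannot be told apart either.

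The family was represented in these muscle cells mainly by 1 gamma gene. Pcdhgc3 (chr18:37806364-37841873), a C-type isoform, averaged 91.3 CPM per kb over the 47 libraries. Pcdhgc4 (chr18:37815079-37841873), the next C-type gene, was listed at 38.8, but with its ambiguous short transcript (below) counted to Pcdhgc3 it came to 0.193, rank 23, and Pcdhgc3 to 109. Beta genes were next: Pcdhb20 (chr18:37504264-37507822) at 4.77, Pcdhb22 (chr18:37517871-37524479) at 3.57 and Pcdhb17 (chr18:37484795-37489454) at 3.17 CPM per kb. The highest gamma gene after the C-type pair was Pcdhga6 (chr18:37707039-37841873), an A-type isoform, at 1.23. Alpha genes were lower still, with Pcdhac2 (chr18:37143503-37187657) at 0.366, Pcdha9 (chr18:36997880-37187657) at 0.0397 and the higher of the Pcdha11 IDs at 0.0081. Pcdhgc3 and Pcdhgc4 together gave 79.8% of the CPM of all members on average (54.8 to 88.9% by library).

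Expression was uneven along each cluster. In the beta cluster the 9 genes at the downstream end, Pcdhb14 to Pcdhb22, gave 88.2 to 95.5% of the beta total in every library, and Pcdhb1 was at 0 throughout. Of the 58 members, 16 were above 3 counts in all 47 libraries (10 beta and 6 gamma), and 5 stayed at 3 counts or fewer (Pcdha7, Pcdha8, Pcdha12, Pcdhac1 and Pcdhb1), 4 of them at 0 (all but Pcdha12). In all 19 members (12 alpha, 3 beta and 4 gamma), those 5 among them, were too low to be tested between any pair of groups. Another 18 (10 beta and 8 gamma) were tested in all 16 such comparisons and the others in some. Members that were tested passed the low-count filter in at least some libraries of either group, so counts over tested members do not stand for all 58.

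**Figure D1:**
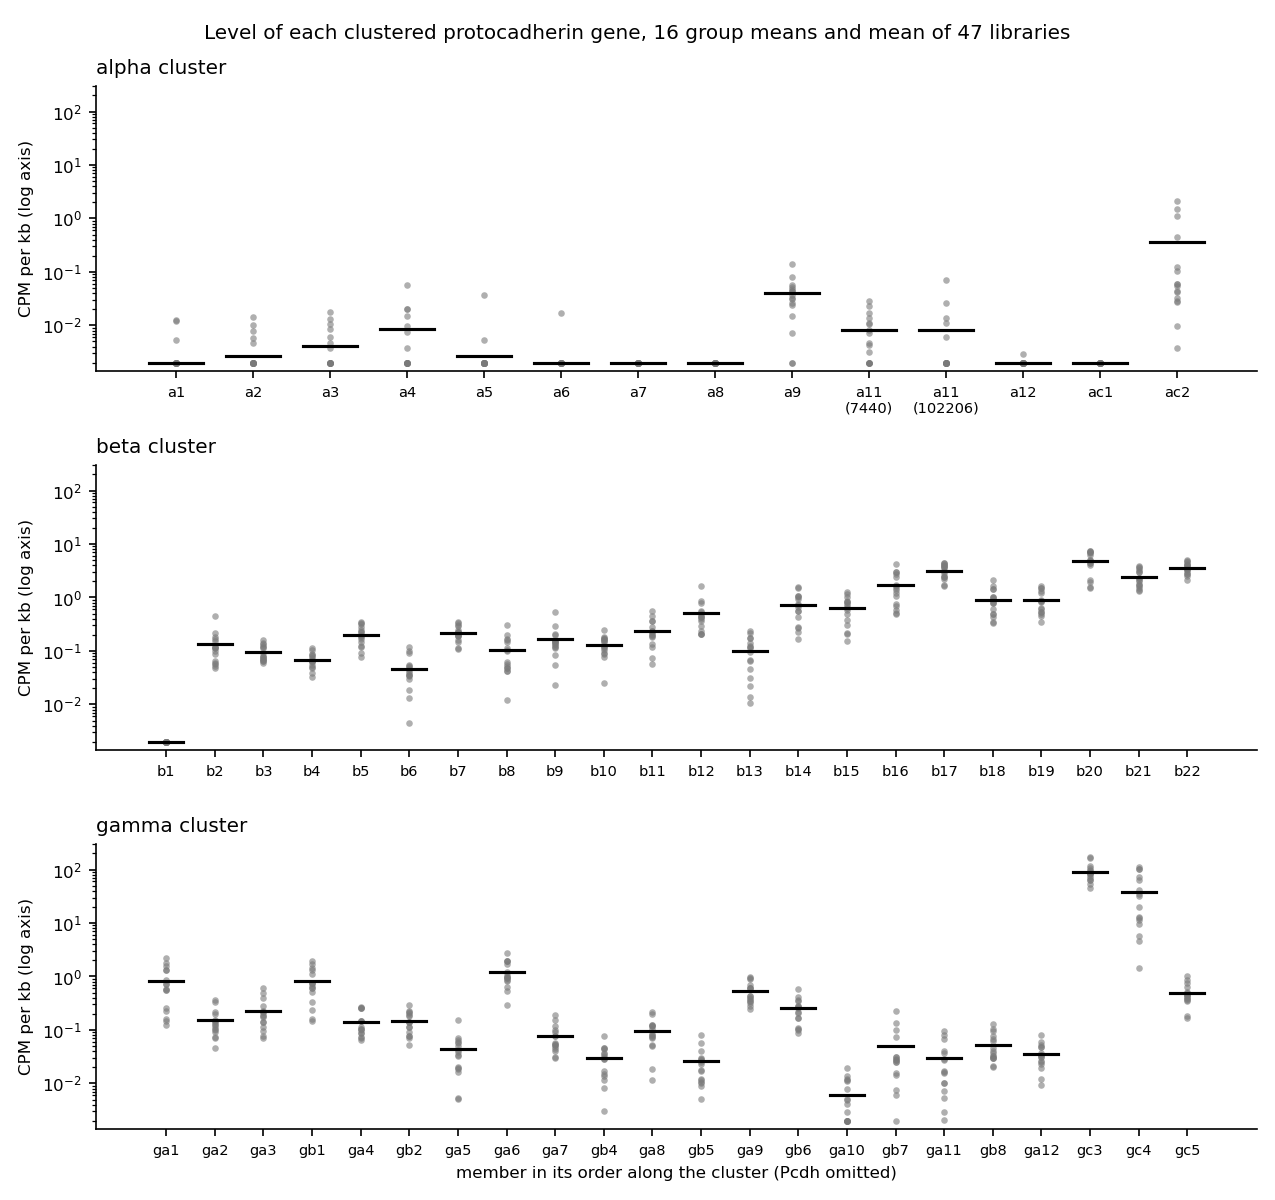
Level of each member (CPM per kb of its transcript, log axis) in the order of the genes along the alpha, beta and gamma clusters; grey points are the means of the 16 groups, bars the mean of the 47 libraries, and values at 0 are drawn at the foot of the axis. Pcdhgc3 at 91.3 stands highest, followed by Pcdhgc4 at 38.8, a value that rests on its ambiguous short transcript, and within the beta cluster Pcdhb14 to Pcdhb22 hold most of the signal.

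The division of reads between Pcdhgc3 and Pcdhgc4 was unstable between replicates. Nearly all Pcdhgc4 counts belonged to a short transcript of 2272 bases (ENSMUST00000195239), 93.3% of whose 31-base words occur in other members, and which held 0 to 9596 counts by library, while the full-length Pcdhgc4 transcript held 0 to 31. Within a group the highest Pcdhgc4 library exceeded the lowest by 1.04 to 69.4 times, whereas the sum of Pcdhgc3 and Pcdhgc4 varied by 1.05 to 1.73 times. At 24 h without dox, for example, Pcdhgc4 was 0.633, 32.8 and 44.0 CPM. Replicate 1 of the myotube-enriched fraction with dox stood apart: Pcdhgc3 was 18.1 CPM there against 380 and 558 in the other replicates, and Pcdhgc4 was 526 CPM against 103 and 124, or 96.7% of the pair's sum. In that library 10 gamma members were at 0, against 0 to 5 in each other library, and Pcdhga2, Pcdhga3, Pcdhga9, Pcdhgb1 and Pcdhgb6 were at 0 in it alone. Pcdhgc3 is therefore set beside the pair's sum below, and Pcdhgc4 is named where it was called but not read on its own.

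**Figure D2:**
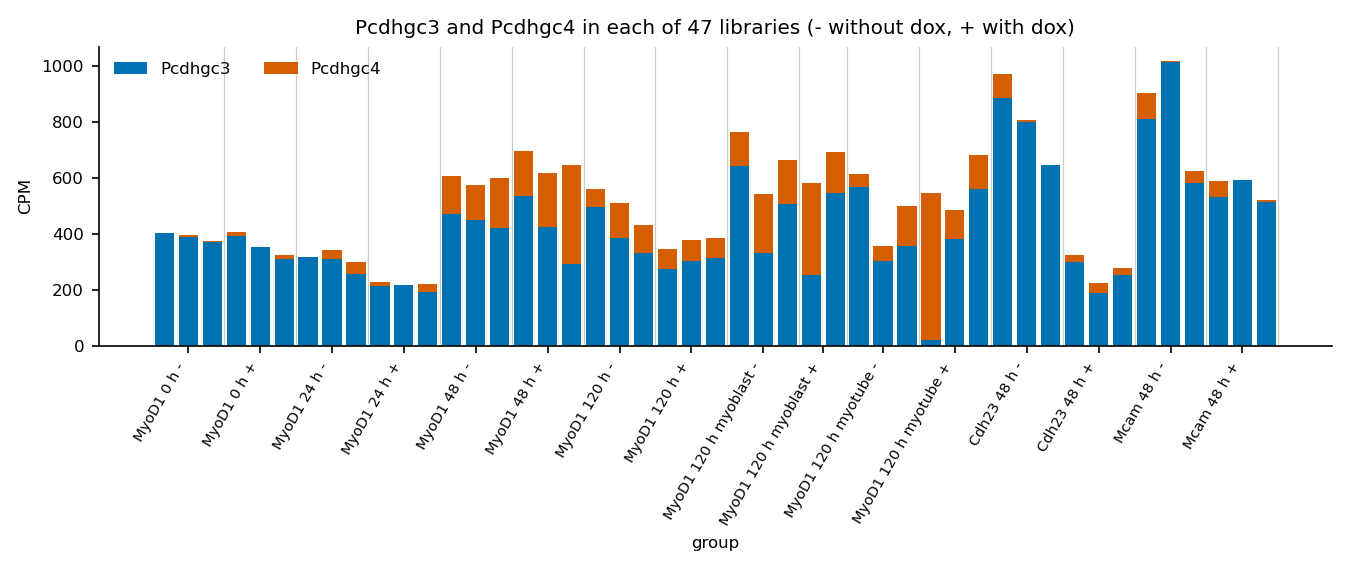
Pcdhgc3 and Pcdhgc4 as stacked bars in each of the 47 libraries (CPM), grouped by line, time and dox. The pair's sum varied less within groups (1.05 to 1.73 times) than Pcdhgc4 alone (up to 69.4 times), and myotube-enriched replicate 1 with dox is the library in which Pcdhgc4 took 96.7% of the sum.

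The course of differentiation without dox was followed first, in the iMyoD1 line. A member is called changed where edgeR's quasi-likelihood test gave an adjusted p under 0.05 over all genes tested and a fold change over 2. The share of all genes at an unadjusted p under 0.05 was not counted, so counts of members at that threshold are not read as a result about the family. The beta total averaged 41.9 ± 0.57 CPM at 0 h, 49.8 ± 1.32 at 24 h, 66.9 ± 2.63 at 48 h and 126 ± 6.02 at 120 h (SD, n = 3 each). The 3 libraries of each time lay above those of the time before. The gamma members other than Pcdhgc3 and Pcdhgc4 summed to 14.9 ± 0.83, 14.8 ± 1.69, 15.9 ± 2.21 and 41.4 ± 2.58 CPM at the same times, with a step only after 48 h. The pair's sum had no such order, at 391 ± 16.5, 320 ± 21.7, 592 ± 16.5 and 500 ± 64.3 CPM.

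From 0 to 24 h, 3 of 28 members tested rose (9.49% of all genes tested did) and 1 fell (16.6% of all genes). Pcdha9 was at 0 in all 3 libraries at 0 h and at 0.603, 0.786 and 0.869 CPM at 24 h, at least 4.6-fold higher against a floor of 3 counts per library. Pcdhga6 was 0.764, 1.10 and 2.22 CPM at 0 h and 3.40, 2.70 and 3.01 at 24 h, the groups not overlapping (log2 fold change 1.17, SE 0.30, adjusted p = 0.0032), a call lost in 1 of 6 cases when a library was left out (0.92 to 1.71). Pcdhgc5 (chr18:37819513-37841873), the last C-type gene, went the other way, from 1.89, 2.10 and 2.02 CPM to 0.595, 0.879 and 0.684 (−1.41, SE 0.28, adjusted p = 3.76e-04). The third riser, Pcdhgc4 (2.84), had overlapping groups and its call was lost when its short transcript was counted to Pcdhgc3 (0.32, adjusted p = 0.412). By adjusted p alone, at smaller folds, Pcdhb14, Pcdhb21 and Pcdhb22 were also higher (0.73, 0.55 and 0.31) and Pcdhac2 and Pcdhgc3 lower (−0.90 and −0.36). The median over the 28 was 0.08, also with Pcdha9 at its bound, against 0.01 over all genes. Neuronal markers summed to 372 to 381 CPM at 0 h and 147 to 151 at 24 h, and muscle markers to 537 to 559 and 348 to 365. The sums hide single markers. Of 7 muscle markers tested 4 rose (largest Myog, 6.43, against 9.49% of all genes) and 0 fell. Of 5 neuronal markers tested 1 fell (Stmn2, −3.65, against 16.6%) and 0 rose. Their part was not tested.

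From 24 to 48 h the libraries come from separate tables. Muscle markers summed to 348 to 365 CPM at 24 h and 13761 to 15141 at 48 h, and neuronal markers to 147 to 151 and 66.9 to 71.1, and their part in the shifts below was not tested. Of 27 members tested 4 rose (19.3% of all genes) and 4 fell (11.1%). Pcdhb20 went from 5.40, 5.53 and 5.79 CPM to 15.3, 15.5 and 17.2, far outside the spread of either group (log2 fold change 1.53, SE 0.11, adjusted p = 2.79e-08). Pcdhgb1 (chr18:37680233-37841870), a B-type gamma isoform, rose by 2.00 (SE 0.37) and Pcdhgc5 by 1.79 (SE 0.27), back to 2.15, 2.38 and 3.09 CPM. The fourth riser was Pcdhgc4 (2.49), whose direction turned when the short transcript was counted to Pcdhgc3 (−0.31, adjusted p = 0.511).

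Pcdhac2 fell most. It was 10.7, 12.6 and 13.6 CPM at 0 h, 7.19, 6.61 and 5.49 at 24 h and 0.208, 0.244 and 0.322 at 48 h (−4.51, SE 0.25, adjusted p = 1.77e-09), and no library of the 2 later tables exceeded 0.797 CPM. Its loss thus coincided with the change of table, and it was not the only such gene: Pcdh9, a protocadherin outside the clusters, averaged 35.2 CPM at 24 h and was at 0 in all 3 libraries at 48 h, at least 245-fold lower. Pcdha9 (−2.22), Pcdhga9 (−1.09) and Pcdhgb6 (−1.76) also fell between these times, and the Pcdhga9 call was lost in 2 of 6 cases when a library was left out (−1.54 to −0.85). Pcdhb21 was lower by adjusted p (−0.78) while Pcdhb14, Pcdhb16, Pcdhb17, Pcdhb19 and Pcdhb22 (0.37 to 0.68), Pcdhga6 (0.54) and Pcdhgc3 (0.61) were higher. Pcdhgc3 was 316, 310 and 255.2 CPM at 24 h and 469, 448 and 418 at 48 h (SE 0.08, adjusted p = 1.29e-05).

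Between 48 and 120 h, within 1 table and the same line, most of the members tested rose. Of 26 members tested, 14 rose, 8 beta and 6 gamma, against 11.7% of all genes. None fell by this rule: edgeR and DESeq2 each called 0, against 18.1% of all genes, and 1 (Pcdhgc4, −0.60, adjusted p = 0.049) was lower by adjusted p at a smaller fold. The median over the members tested was 1.26 on the log2 scale against −0.03 over all genes, and 24 of the 26 were positive. The largest rise was that of Pcdhga1 (chr18:37661793-37841873), the first gene of the gamma cluster, from 0.594, 0.964 and 0.937 CPM to 9.89, 7.41 and 11.8 (3.53, SE 0.27, adjusted p = 5.32e-06). Pcdhb16 (chr18:37477814-37483038) went from 3.62, 3.70 and 4.37 CPM to 14.2, 16.5 and 16.04 (2.01, SE 0.15, adjusted p = 4.84e-06). In both genes the groups were well apart. Among the 5 with the largest change were also Pcdhga2 (1.84, SE 0.40), Pcdhb15 (1.79, SE 0.31) and Pcdhgb1 (1.66, SE 0.32).

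Neighbouring beta genes did not all follow. Pcdhb18 (1.55), Pcdhb19 (1.504), Pcdhb21 (1.47) and Pcdhb14 (1.26) changed, Pcdhb17 and Pcdhb22 were higher by adjusted p at smaller folds (0.75 and 0.43), and Pcdhb20, the most abundant beta gene, was 15.3, 15.5 and 17.2 CPM at 48 h and 17.7, 16.1 and 18.6 at 120 h (0.14, adjusted p = 0.296). Pcdhb20 had already risen by 48 h, in the step in which Pcdhb21 was lower. Pcdhgc3 was 469, 448 and 418 CPM at 48 h and 496, 385 and 332 at 120 h (−0.12, adjusted p = 0.434). The remaining 5 that changed were Pcdhb5, Pcdhb12, Pcdhga4, Pcdhga6 and Pcdhgb2 (1.10 to 1.58). These were low genes, Pcdhga6 excepted, and each of the 5 calls was lost without at least 1 library, Pcdhb12 in 5 of 6 cases and Pcdhgb2 in 4 of 6. Summed neuronal markers moved the other way, from 66.9 to 71.1 CPM at 48 h to 19.7 to 22.4 at 120 h, and muscle markers from 13761 to 15141 to 9055 to 14320. Their part in the rise was not tested.

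**Figure D3:**
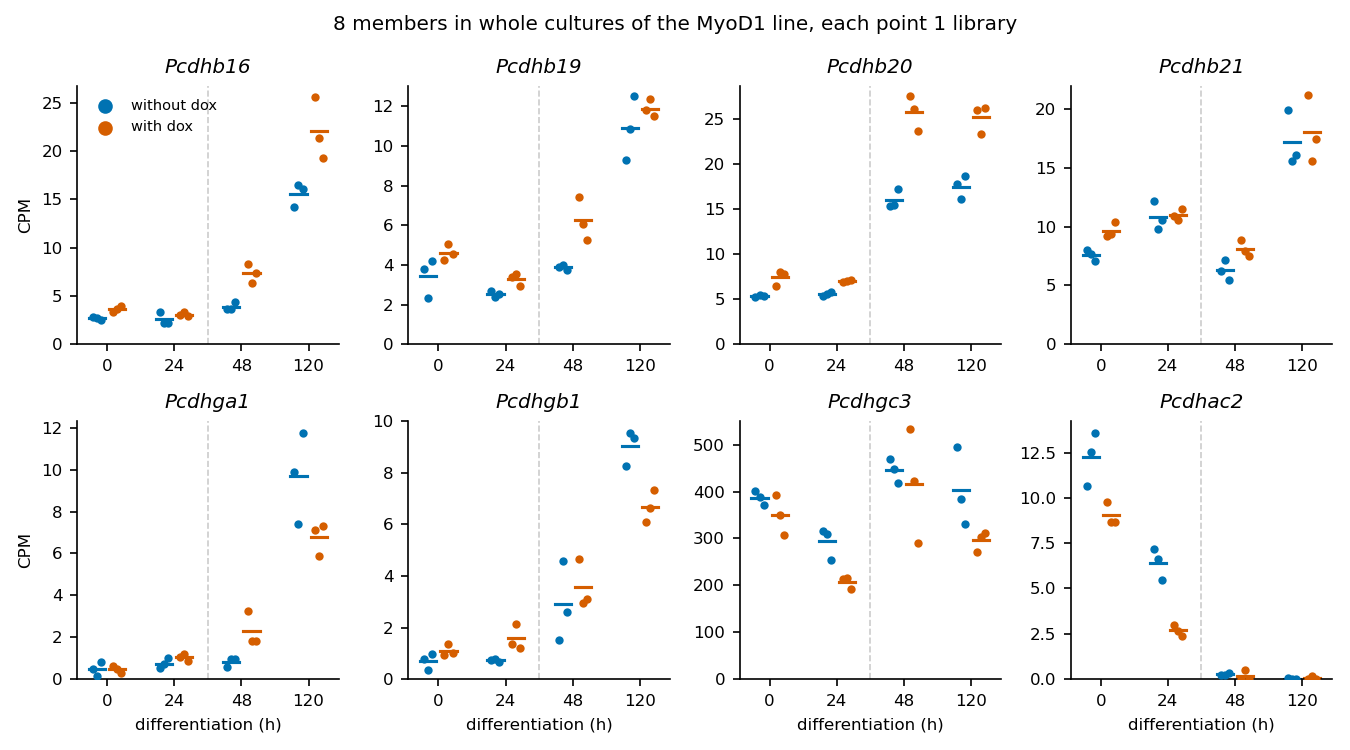
CPM of 8 members in the iMyoD1 whole cultures at 0, 24, 48 and 120 h, each point 1 library and each bar a group mean, with and without dox; the dashed line separates the deposited tables. Pcdhga1 and Pcdhb16 climb between 48 and 120 h, Pcdhb20 between 24 and 48 h, and Pcdhac2 is lost across the dashed line.

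Dox was then compared with vehicle at each time in iMyoD1, a line made to induce MyoD1, although the Myod1 counts, in which transgene RNA may be missing, did not follow the dox labels. In the libraries labelled with dox at 0 h, in growth medium, 0 of 26 members tested changed by edgeR and also by DESeq2 (4.27% of all genes did), while 7 had an unadjusted p under 0.05 (share of all genes not counted). With 1 library left out 1 or 2 changed in 5 of 6 cases. Pcdhb15, at 0.308, 0.450 and 0.549 CPM without dox and 0.801, 0.920 and 0.848 with it, was near the rule (0.96, adjusted p = 0.0566), as was Pcdhga6 (0.88, adjusted p = 0.0539). By adjusted p at any fold, 3 rose (19.1% of all genes) and 1 fell (18.7%). Pcdhb17 was 7.03, 7.90 and 7.74 CPM without dox and 11.7, 11.2 and 11.4 with it, with no overlap (0.60, SE 0.11, adjusted p = 7.43e-04). Pcdhb20 (0.47, adjusted p = 0.0193) and Pcdhb21 (0.36, adjusted p = 0.0309) were the others. Pcdhac2 was lower, at 9.75, 8.67 and 8.67 CPM against 10.7, 12.6 and 13.6 (−0.43, adjusted p = 0.0107). Pcdhgc3 did not pass (−0.13, adjusted p = 0.167), nor did Pcdhgc5 (−0.26, adjusted p = 0.487). The pair's sum was 391 ± 16.5 CPM without dox and 361 ± 42.0 with it. Muscle markers summed to 616 to 647 CPM with dox and 537 to 559 without, and neuronal markers to 278 to 287 and 372 to 381, and their part was not tested.

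At 24 h, 2 of 34 members tested rose with dox (8.02% of all genes) and 2 fell (5.13%), and by adjusted p at any fold 7 rose (31.1%) and 3 fell (31.7%). The risers were the gamma genes Pcdhga2 (1.31, SE 0.48, adjusted p = 0.0299) and Pcdhgb1 (1.08, SE 0.29, adjusted p = 0.0066), the second from 0.743, 0.778 and 0.672 CPM to 1.37, 2.15 and 1.22. Those that fell were the alpha genes Pcdhac2 and Pcdha9. Pcdhac2 was 7.19, 6.61 and 5.49 CPM without dox and 3.00, 2.68 and 2.40 with it (−1.29, SE 0.15, adjusted p = 1.02e-05), and Pcdha9 0.603, 0.786 and 0.869 against 0.302, 0.179 and 0.346 (−1.41, adjusted p = 0.0054). Pcdhgc3 was lower in all 3 libraries with dox, at 213, 215 and 193 CPM against 316, 310 and 255.2 (−0.53, SE 0.08, adjusted p = 1.15e-04), and the pair's sum was 220.2 ± 5.12 against 320 ± 21.7. Pcdhb17 (0.41), Pcdhb18 (0.45), Pcdhb20 (0.31), Pcdhga6 (0.41) and Pcdhga9 (0.56) were higher at smaller folds. In 1 fit over all groups 0 of the 4 changes passed, and Pcdhga2 was lost in 4 and Pcdhgb1 in 1 of 6 cases when a library was left out. Neuronal markers summed to 147 to 151 CPM without dox and 106 to 114 with it, and 0 of 5 tested changed. Muscle markers summed to 348 to 365 and 375 to 377, while of 9 tested 1 fell (Myf5, −2.96, against 5.13% of all genes) and 0 rose. Their part was not tested.

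The dox effects at 24 and 0 h were compared as an interaction. Of 34 members, 4 had a lower effect at 24 h (20.7% of all genes): Pcdhac2 by −0.90 (adjusted p = 0.0014), Pcdhgc3 by −0.44 (adjusted p = 0.0086), Pcdhb21 by −0.41 (adjusted p = 0.038) and Pcdha9. The last is no usable difference, since Pcdha9 was at 0 in every library at 0 h without dox and was not tested for dox at 0 h, so that its fitted −7.89 depends on the prior count. DESeq2 called 3 lower, and the Pcdhb21 call was lost with it (adjusted p = 0.112) and in 6 of 12 cases when a library was left out. Pcdhb21 was 7.08 to 7.98 CPM at 0 h without dox and 9.21 to 10.4 with it, but 9.81 to 12.2 and 10.5 to 11.5 at 24 h, where the groups overlapped. None was higher: edgeR and DESeq2 called 0, and 0 had an unadjusted p under 0.05.

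At 48 h the members that passed as higher with dox were mostly downstream beta genes, which are also the more abundant ones. Pcdhb12 (chr18:37435621-37438654), Pcdhb15 and Pcdhga1 changed among 24 tested (5.93% of all genes), and by adjusted p at any fold 12 rose (27.9%): the 9 genes Pcdhb14 to Pcdhb22, Pcdhb12, Pcdhga1 and Pcdhgc4. The groups of Pcdhgc4 overlapped, and its reads were unstably divided. Of the upstream beta genes, Pcdhb5 (0.61), Pcdhb7 (−0.18), Pcdhb9 (0.66) and Pcdhb11 (0.63) did not pass and the other 8 beta genes were not tested. Those that did not pass averaged only 0.605 to 0.920 CPM with dox, with SEs of 0.36 to 0.51, and all but Pcdhb7 had folds like those of Pcdhb17 and Pcdhb20. Of the untested, Pcdhb6 and Pcdhb13 lay above in every library with dox. Place in the cluster and level therefore cannot be told apart here. Pcdhb20 was 15.3, 15.5 and 17.2 CPM without dox and 27.5, 26.1 and 23.7 with it (0.67, SE 0.09, adjusted p = 8.67e-05). Pcdhb17 was 10.9, 11.8 and 11.5 against 19.0, 17.9 and 15.4 (0.60, SE 0.10, adjusted p = 4.45e-04). Every library with dox lay above every library without in both genes.

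Pcdhga1 had the largest change, from 0.594, 0.964 and 0.937 CPM to 3.24, 1.81 and 1.83 (1.44, SE 0.33, adjusted p = 0.0035), and Pcdhb12 (1.22, SE 0.31) and Pcdhb15 (1.09, SE 0.28) followed, the last lost in 3 of 6 cases when a library was left out. None fell: edgeR and DESeq2 called 0 lower (8.46% of all genes), and 0 were lower at an unadjusted p under 0.05. The beta total was 66.9 ± 2.63 CPM without dox and 104 ± 8.29 with it. Pcdhgc3 was 469, 448 and 418 against 534, 423 and 291 CPM, overlapping (−0.11, adjusted p = 0.581), and the pair's sum 592 ± 16.5 against 653 ± 39.9. The median over members tested was 0.62, against 0.01 over all genes. Muscle markers summed to 13761 to 15141 CPM without dox and 6097 to 6317 with it, and neuronal markers to 66.9 to 71.1 and 36.4 to 38.6. Whether these shifts have a part in the beta values was not tested.

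At 120 h 3 members changed, none of them among those that changed at 48 h, and the difference between the 2 times was not tested. Pcdhga5 and Pcdhgb8, both under 1 CPM, rose with dox (2 of 30, 7.32% of all genes) and Pcdhb5 fell (8.80%), and by adjusted p at any fold 5 rose (21.4%) and 2 fell (23.7%). Pcdhb5 was 1.08, 1.27 and 1.33 CPM without dox and 0.435, 0.396 and 0.121 with it (−1.95, SE 0.52, adjusted p = 0.0139). Pcdhgb8 was 0.0724, 0.151 and 0.0704 against 0.429, 0.890 and 0.437 CPM (2.80, SE 0.73, adjusted p = 0.0119), a rise from the level of the floor. When 1 library was left out the call on Pcdhga5 (2.16, adjusted p = 0.0484) was lost in 5 of 6 cases, that on Pcdhgb8 in 2 (2.38 to 3.43) and that on Pcdhb5 in 1.

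Of the abundant beta genes, Pcdhb14 (0.56), Pcdhb16 (0.49) and Pcdhb20 (0.51) were higher with dox at 120 h. Pcdhb20 was 17.7, 16.1 and 18.6 CPM without and 26.0, 23.4 and 26.2 with it (SE 0.12, adjusted p = 0.0078). Pcdhb17 (0.04) and Pcdhb22 (−0.08) had overlapping groups. Pcdhgc3 fell again, from 496, 385 and 332 CPM to 272, 303 and 312 (−0.46, SE 0.14, adjusted p = 0.0227), and the pair's sum was 500 ± 64.3 without dox and 369 ± 20.7 with it. Pcdhga1, higher with dox at 48 h, was 9.89, 7.41 and 11.8 CPM without and 7.14, 5.89 and 7.30 with it at 120 h, so that its 3 libraries with dox lay below those without, a difference that did not pass. Muscle markers summed to 9055 to 14320 CPM without dox and 6841 to 8709 with it, and neuronal markers to 19.7 to 22.4 and 25.6 to 28.0, and their part was not tested.

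**Figure D4:**
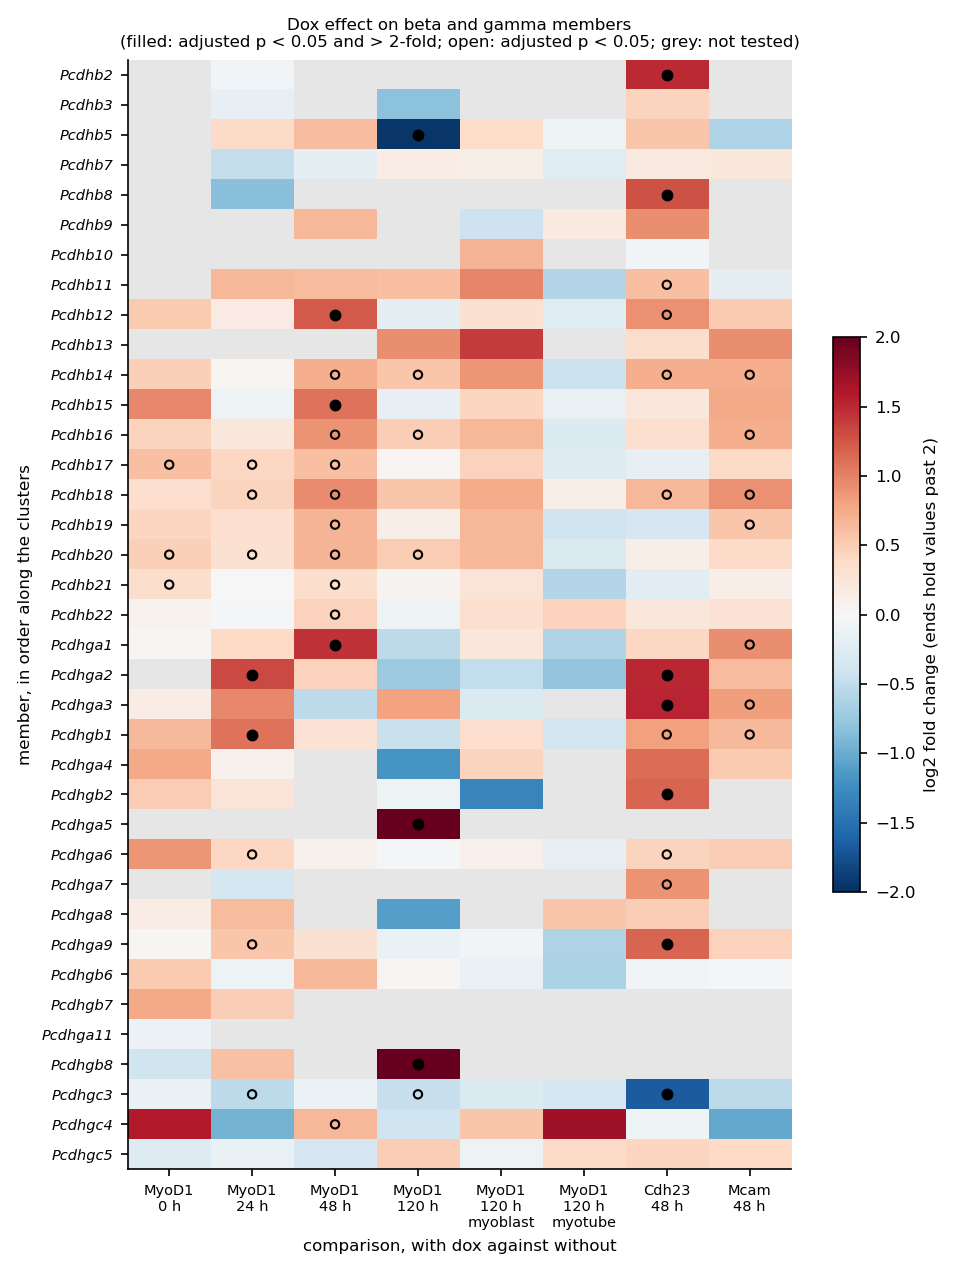
Log2 fold change with dox against without (colour, ends at 2 and −2) of the beta and gamma members in the 8 dox comparisons; filled circles mark adjusted p under 0.05 and over 2-fold, open circles adjusted p under 0.05 alone, and grey cells were not tested. Pcdhb12 and Pcdhb14 to Pcdhb22 are all marked and red at 48 h in iMyoD1, and the Pcdhgc3 row is blue in all 8 columns.

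The fractions at 120 h were noisier. In the myoblast-enriched fraction 0 of 29 members tested changed with dox by edgeR and by DESeq2 (3.03% of all genes), with 8 at an unadjusted p under 0.05, all higher. Pcdhb20 was 16.3, 17.4 and 13.8 CPM without dox and 25.3 and 24.9 with it (0.67, adjusted p = 0.0632). In the myotube-enriched fraction edgeR and DESeq2 called 0 of 24 members, and edgeR 0% of all genes, with 1 member at an unadjusted p under 0.05. Its replicates spread widely: Pcdhb20 was 15.4, 24.4 and 13.1 CPM without dox and 7.55, 11.8 and 23.7 with it. Pcdhgc3 was 567, 302 and 356 against 18.1, 380 and 558 CPM (−0.35, adjusted p = 0.998), and without the replicate that stood apart the sign turned (0.20). The pair's sum there went the other way, at 489 ± 129 CPM without dox and 570 ± 102 with it.

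Set against each other, the myotube- and myoblast-enriched fractions differed in 0 of 27 members without dox (0.585% of all genes) and 0 of 28 with it (0%) by edgeR, and DESeq2 also called 0. The replicate numbers paired the libraries without dox, and with the replicate as a block 480 of all genes were called there instead of 82. One member without dox and 0 with it had an unadjusted p under 0.05. For the difference of the dox effect between fractions edgeR and DESeq2 called 0 of 30 members, edgeR 0% of all genes, and 0 members had an unadjusted p under 0.05. The SEs of these differences were 0.41 to 1.87, so only large ones could have passed. The median difference was −0.51 over the members and −0.76 over the beta genes, against 0.05 over all genes, from a beta median dox effect of 0.56 in the myoblast- and −0.25 in the myotube-enriched fraction. Muscle markers summed to 13598 to 22303 CPM in the myotube-enriched and 6743 to 10213 in the myoblast-enriched libraries without dox. The beta total was 87.1 ± 31.1 and 75.1 ± 3.181 CPM in them, and the fold change of Pcdhb20 between them was 0.18 (adjusted p = 0.766), with an SE of 0.26.

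The other lines, made to induce adhesion genes, were compared with and without dox at 48 h. Cdh23 RNA was high in iCdh23 also without dox (348 to 451 CPM, against 426 to 568 with it), so this contrast is one of dox labels rather than of a gene off and on. In iCdh23, Pcdhgc3 was 886, 799 and 644 CPM without dox and 299, 186 and 253 with it, 776 ± 123 against 246 ± 56.6 (SD, n = 3 each). The groups were far apart, and the log2 fold change of −1.66 (SE 0.20, adjusted p = 2.94e-04) was the largest fall of any Pcdhgc3 comparison. It was the only member of 33 that fell by the rule (17.0% of all genes), and the pair's sum moved with it, from 807 ± 162 to 275 ± 50.0 CPM. It lay between −1.82 and −1.48 when each library was left out, and at −1.55 with the short Pcdhgc4 transcript counted to it.

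Some other gamma genes rose in the same libraries, 4 of the 14 tested by the rule. Pcdhga2, Pcdhga3, Pcdhga9 and Pcdhgb2 changed, with the upstream beta genes Pcdhb2 and Pcdhb8 (6 of 33, 13.0% of all genes), and by adjusted p at any fold 13 rose (31.3%). Pcdhga3 was 1.04, 0.772 and 1.19 CPM without dox and 3.41, 2.41 and 2.91 with it (1.53, SE 0.26, adjusted p = 0.0016). Pcdhga9 (chr18:37736936-37841870) was 2.17, 2.35 and 1.64 against 5.13, 4.28 and 4.37 CPM (1.16, SE 0.21, adjusted p = 0.0018), and Pcdhb2 0.487, 0.534 and 0.347 against 1.08, 1.29 and 1.498 (1.498, SE 0.29, adjusted p = 0.0027). None of the 3 overlapped. Pcdhga2 rose by 1.51, Pcdhgb2 by 1.17 and Pcdhb8 by 1.28, the last 2 with calls that were lost without some libraries (4 and 3 of 6).

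The gamma total without Pcdhgc3 and Pcdhgc4 was 28.4 ± 2.25 CPM without dox and 44.4 ± 2.23 with it. The 3 most abundant beta genes did not pass: Pcdhb20 (0.12), Pcdhb22 (0.23) and Pcdhb17 (−0.16). Pcdhb12, Pcdhb14, Pcdhb18 and Pcdhb11 were higher by adjusted p (0.92, 0.72, 0.67 and 0.60). In these libraries muscle markers summed to 6057 to 9306 CPM without dox and 271 to 375 with it, and neuronal markers to 149 to 192 and 52.1 to 56.0. Of 6 neuronal markers tested 1 rose, Syn1 (1.02, against 13.0% of all genes), and 3 fell, Nefl (−4.27), Stmn2 and Tubb3 (17.0%). Their part in the family's shifts was not tested.

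In iMcam 0 of 26 members changed with dox by edgeR and by DESeq2 (16.8% of all genes), with 12 at an unadjusted p under 0.05, 10 of them higher (share of all genes not counted). By adjusted p 7 rose (24.2%): Pcdhb18 (0.91), Pcdhga1 (0.93), Pcdhga3 (0.84), Pcdhb14 and Pcdhb16 (0.72 each), Pcdhgb1 (0.65) and Pcdhb19 (0.55). Pcdhga1 was 2.86, 3.99 and 2.89 CPM without dox and 5.75, 5.86 and 6.39 with it (SE 0.19, adjusted p = 0.0059), with no overlap. Pcdhgc3 was 810, 1014 and 581 against 532, 592 and 515 CPM, with 2 libraries with dox below all 3 without (−0.52, adjusted p = 0.0604). The pair's sum was 847 ± 202 CPM without dox and 568 ± 40.6 with it. The replicate numbers paired these libraries, and with the replicate as a block Pcdhgc3 passed (adjusted p = 0.0182), 11 members rose (28.8% of all genes in that fit) and 2 fell (29.2%) by adjusted p, and 1, Pcdhgc4, changed (−1.52, adjusted p = 0.0233). The call on Pcdhgc4 rests on its unstable division of reads. Muscle markers summed to 4570 to 10260 CPM without dox and 812 to 1929 with it, neuronal markers to 136 to 165 and 48.1 to 64.6, and their part was not tested.

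The dox effect on Pcdhgc3 was lower in iCdh23 than in iMcam by 1.12 on the log2 scale (interaction −1.12, SE 0.30, adjusted p = 0.0358), the only 1 of 34 members with a lower effect (7.61% of all genes), and its adjusted p ranged from 0.0219 to 0.0809 when 1 library was left out. None was higher by edgeR or DESeq2 (0 each, with 2 at an unadjusted p under 0.05). DESeq2 called 2 lower.

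Over the 8 dox comparisons, which share no libraries, Pcdhgc3 was lower by adjusted p in 3 and its fold change was negative in all 8 (−1.66 to −0.11), although the values at 48 h in iMyoD1 and in the myotube-enriched fraction turned positive with the short Pcdhgc4 transcript counted to it (0.13 and 0.25). Pcdhb18 (chr18:37489465-37494505) was higher by adjusted p in 4 and positive in all 8 (0.11 to 0.94). Pcdhb14 and Pcdhb20 were higher by adjusted p in 4 each and positive in 7 (lowest −0.42 and −0.28), and Pcdhb16 in 3 and 7 (lowest −0.28). Pcdhb17 and Pcdhgb1 were higher in 3 each and positive in 6 (lowest −0.25 and −0.45). These tallies use the fits without the replicate block. With it Pcdhgc3 (adjusted p = 0.0182), Pcdhb17 (0.0275) and Pcdhb20 (0.0443) also passed in the paired iMcam libraries. Pcdhac2 was tested in 4 and negative in all 4 (−1.29 to −0.43). Pcdhgc5 passed in none of 8 (−0.34 to 0.49) and Pcdhac1 was at 0 everywhere. The share of all genes with as many passes, or with 1 sign throughout, was not counted, so these tallies do not set the members apart from other genes.

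**Figure D5:**
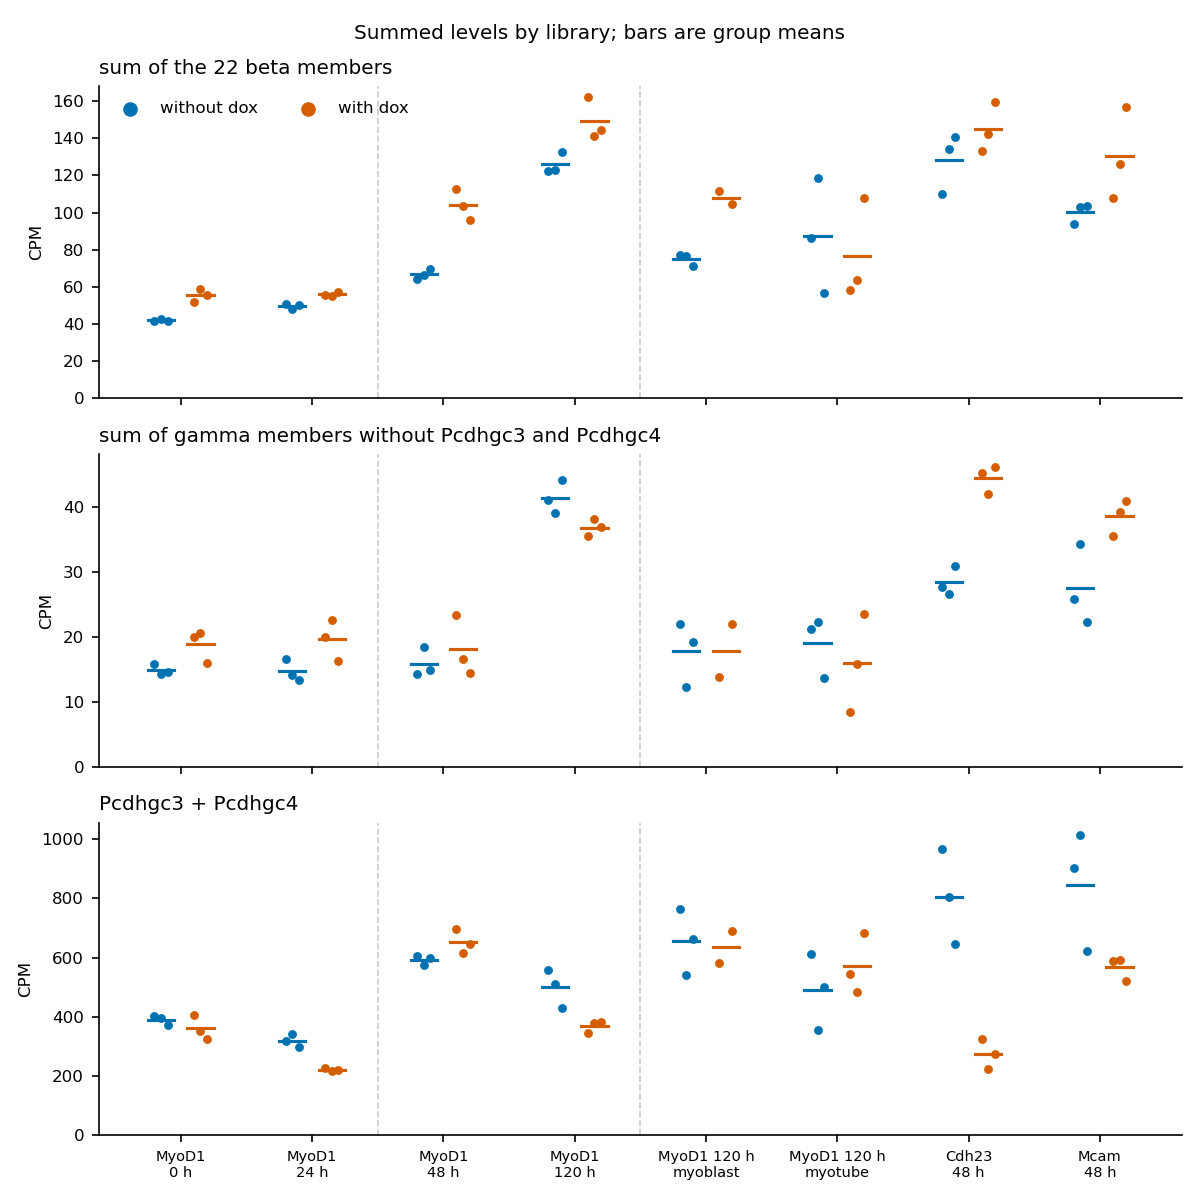
Summed CPM per library of the beta members, of the gamma members without Pcdhgc3 and Pcdhgc4, and of the Pcdhgc3 and Pcdhgc4 pair, in the 47 libraries with and without dox (points, with bars at group means); dashed lines separate the 3 deposited tables. Beta totals run from 41.5 CPM at 0 h to 162 at 120 h, and the pair's sum is lowest in iCdh23 and iMyoD1 24 h libraries with dox.

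Without dox at 48 h the lines themselves were unlike, in comparisons that cross tables and share the iMyoD1 libraries. Against iMyoD1, 11 of 25 members were higher in iCdh23 (5.09% of all genes), 9 of them beta, and in iMcam 7 of 23 (6.23%). None was lower: edgeR and DESeq2 called 0 in each (3.81% and 5.88% of all genes), and 0 were lower at an unadjusted p under 0.05. Pcdhga1 was 3.74, 5.95 and 8.17 CPM in iCdh23 and 2.86, 3.99 and 2.89 in iMcam, against 0.594, 0.964 and 0.937 in iMyoD1 (log2 differences 2.81 and 1.93, SE 0.35 and 0.29). Pcdhb16 was 9.39, 11.6 and 16.1, then 7.57, 9.20 and 9.45, against 3.62, 3.70 and 4.37 CPM (1.65 and 1.16). Neither line overlapped iMyoD1 in these genes.

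The other large differences for iCdh23 were Pcdhb12 (2.07), Pcdhb19 (1.48) and Pcdhb11 (1.40), and for iMcam Pcdhb12 (1.45), Pcdhgb6 (1.39), Pcdhac2 (1.38), Pcdhga9 (1.24) and Pcdhb21 (1.18). With 1 library left out the iCdh23 calls were lost in 5 of 6 cases each for Pcdhb9, Pcdhb15 and Pcdhb18 and in 2 each for Pcdhb14 and Pcdhga6. The iMcam calls were lost in 4 of 6 cases for Pcdhga9 (0.88 to 1.71), 3 for Pcdhgb6 and 1 for Pcdhac2. Pcdhgc3 was higher by adjusted p in both (0.79 and 0.85), but the unstable division of reads enters these values. Pcdhgc4 took 21.8 to 30.1% of the pair's sum in iMyoD1, 0.2 to 8.5% in iCdh23 and 0.3 to 10.2% in iMcam. The pair's sum was 605, 573 and 598 CPM in iMyoD1, 969, 806 and 645 in iCdh23 and 901, 1016 and 624 in iMcam. Neither line overlapped iMyoD1 in the sum, which differed by smaller folds than Pcdhgc3 alone. Between iCdh23 and iMcam 0 of 29 members differed by edgeR and by DESeq2 (0.350% of all genes), with 7 at an unadjusted p under 0.05 (share of all genes not counted). The replicate numbers paired these libraries, and with the replicate as a block 268 of all genes were called instead of 48. Muscle markers, at 13761 to 15141 CPM in iMyoD1, 6057 to 9306 in iCdh23 and 4570 to 10260 in iMcam, and neuronal markers, at 66.9 to 71.1, 149 to 192 and 136 to 165 CPM, moved with these differences, and their part was not tested.

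Protocadherins outside the clusters, which share the adhesion domain but are single genes spread over the genome, went down with dox where they changed. Of 12 listed, 4 or 5 were tested. With dox 3 of 5 fell at 24 h in iMyoD1 (largest Pcdh18, −1.57), where 5.13% of all genes did. At 48 h 1 of 4 fell (Pcdh7, −1.21, against 8.46% of all genes) and at 120 h 1 of 4 (Pcdh1, −1.59, against 8.80%). In iCdh23 3 of 4 fell (largest Pcdh7, −3.19, from 29.7 to 3.29 CPM, against 17.0% of all genes), and in iMcam 1 of 4 (Pcdh7, −1.57, with 16.8% of all genes changed in either direction). Without dox 1 of 5 fell from 0 to 24 h (Pcdh7, −1.45, against 16.6% of all genes). From 24 to 48 h 1 of 5 rose (Pcdh7, 3.81, against 19.3%) and 2 fell (Pcdh9 and Pcdh19, against 11.1%), and from 48 to 120 h 1 of 4 rose (Pcdh1, 1.30, against 11.7%). Pcdh19 was also higher in iMcam than in iMyoD1 (1.38).

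Of 17 genes that control the clusters, among them Ctcf and the cohesin subunits, which loop promoters to enhancers, and the DNA methyltransferases, which silence unused promoters, all were tested, and 0 to 2 changed in a comparison. Dnmt3a, a de novo methyltransferase, was the 1 of 17 that rose with dox at 24 h in iMyoD1 (1.10, against 8.02% of all genes) and the 1 that changed in iMcam (1.14, against 16.8% in either direction). In iCdh23 2 of 17 rose, Dnmt3a (1.33) and Dnmt3b, against 13.0% of all genes. Without dox Dnmt3a was the 1 that rose from 24 to 48 h (1.15, against 19.3%). Dnmt1, the maintenance enzyme, was the 1 that fell from 0 to 24 h (−1.10, against 16.6%) and from 48 to 120 h (−1.31, against 18.1%), and Nipbl, the cohesin loader, the 1 that rose in the latter step (1.24, against 11.7%).

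Of 18 intracellular partners, such as the kinases Fyn and Ptk2b and the actin-regulating WAVE complex, 17 were tested, and at most 2 rose and 1 fell in any comparison. Cyfip2, a WAVE subunit, was the 1 of 17 that changed with dox at 0 h in iMyoD1 (2.76, against 4.27% of all genes in either direction) and in iMcam (4.01, against 16.8%), and the 1 that rose in iCdh23 (5.59, from 0.837 to 40.8 CPM, against 13.0% of all genes). Without dox it was the 1 that rose from 48 to 120 h (4.20, against 11.7%) and that differed between myotube- and myoblast-enriched fractions (3.71, against 0.585% in either direction), and the 1 that fell from 24 to 48 h (−1.69, against 11.1%). From 0 to 24 h 2 of 17 rose, Fyn (1.85) and Cyfip2, against 9.49% of all genes, and Ptk2b fell (−1.49, against 16.6%). Fyn was the 1 that fell with dox at 48 h (−1.28, against 8.46%), at 120 h (−2.12, from 190.9 to 44.4 CPM, against 8.80%) and in iCdh23 (−1.06, against 17.0%). Wasf1 was the 1 that rose with dox at 120 h (1.59, against 7.32%), and Ptk2b the 1 that was higher in iCdh23 and in iMcam than in iMyoD1 (1.29 and 1.23, against 5.09% and 6.23%).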

How the data were processed

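PolyA-selected RNA of the 47 libraries was sequenced as paired reads. The authors ran nf-core/rnaseq 3.18.0 and deposited 3 tables of salmon estimated counts for 109617 transcripts, not scaled for depth or length (30.97 to 34.36% of values were not whole, tolerance 1e-06). They tested genes with DESeq2. The labels name mm10; the annotation used for the RNA-seq is not given in the sources used here, and GENCODE M21, which holds 98.72% of the transcripts, supplied positions and lengths. Estimated counts were summed per gene ID over the 88 member transcripts and rounded to whole numbers. Between 2 groups, filterByExpr, TMM and the quasi-likelihood test of edgeR 4.0.16 (R 4.3.3) were run on all genes, with Benjamini-Hochberg adjustment. Standard errors came from the F statistic. CPM used TMM factors over all libraries. Titles call the replicates biological. No UMI was used, so a floor of 3 counts covers counting error only.

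The members, the lists of markers, regulators and partners and the comparisons were chosen with earlier results of these data known. Named are members that changed (all up to 10, otherwise the 5 with the largest change), the 3 most abundant of each cluster, the C-type members and the largest rise and fall of each list. Other members named with values were chosen after their values were seen. Since exact permutation of 3 against 3 cannot go below 0.1, only tests fitted across genes are given.

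Alternatives were DESeq2 1.42.0, RLE scaling, no low-count filter, all groups in 1 fit, the replicate as a block, the most abundant transcript per gene, each library left out, and, chosen after seeing the data, the short Pcdhgc4 transcript counted to Pcdhgc3. Replicate numbers come from the titles. They were taken to pair libraries where residuals of same-numbered libraries correlated above 0.1 in every pair, with 3 or more pairs: iMcam with and without dox (0.316 to 0.474), the fractions without dox (0.178 to 0.494) and iCdh23 and iMcam without dox (0.131 to 0.549). Replicates differed beyond sampling noise (chi-square per degree of freedom 3.04 to 412.91). The scripts were tested on simulated counts in which 200 genes were given a 4-fold change. Of these, edgeR found 189 for 48 against 120 h (11 false calls, 13786 genes), 178 for dox in the myoblast-enriched fraction (14 false, 14249 genes) and 175 for the iCdh23 and iMcam interaction (8 false, 14552 genes). Python 3.11.15 with pandas 2.3.3 and numpy 2.4.6 was used. Sequences of the members were not used here.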

Additional observations from a re-analysis of the deposited data

Results flagged for a closer look

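In 4 cases the dox effect on a member differed between conditions by the interaction test, in 1 further case the fitted difference cannot be used, and in 1 case every library moved opposite ways at 2 times. At 24 h against 0 h in iMyoD1 the effect was lower for Pcdhac2 by −0.90, for Pcdhgc3 by −0.44, and for Pcdhb21 by −0.41. For Pcdha9 the fitted value of −7.89 rests on 0 counts in all libraries at 0 h without dox and is no tested difference. The Pcdhb21 difference did not pass with DESeq2 (−0.35, adjusted p = 0.112) or without the low-count filter (−0.38, adjusted p = 0.123), and was lost in 6 of 12 cases when 1 library was left out. In iCdh23 against iMcam the effect on Pcdhgc3 was lower by −1.12, and this did not pass in 8 of 12 cases when 1 library was left out.

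Pcdhga1 was higher with dox in all libraries at 48 h (1.44) and lower in all at 120 h (−0.53) in iMyoD1, a gap of 1.97 on the log2 scale. The difference was not tested, and the 120 h value did not pass.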

How the results depend on the processing

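Numbers of changed members moved by more than 1.5 times as follows. Without the low-count filter 2 changed with dox at 0 h, 5 at 48 h, 1 in iMcam and 8 from 0 to 24 h. With the most abundant transcript per gene 1 changed with dox at 0 h and 2 in iMcam. In 1 fit over all groups 0 changed with dox at 24 h and 4 in iCdh23, and 4 differed between iMcam and iMyoD1. DESeq2 gave 2 for the iCdh23 and iMcam interaction, and so did the replicate block (2). With the replicate block 1 changed with dox in iMcam (0 without it), and the block moved no other count by that much. In the comparisons not paired by the check, the replicate block ended the calls on Pcdhga2 at 24 h (adjusted p = 0.0553), Pcdhga5 at 120 h (0.069), Pcdhb12 from 48 to 120 h (0.0609) and Pcdhb9 in iCdh23 against iMyoD1 (0.0528), and put Pcdhb18 there under 2-fold (0.98). In the myoblast-enriched fraction 2 pairs (0.375 and 0.525) are too few for the pairing rule. There the replicate block left 0 changed but 5 members passed by adjusted p, all higher (13.9% of all genes), Pcdhb20 among them (0.71, adjusted p = 0.00691). The causes were not tested.

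Leaving out 1 library gave 0 to 2 changed members for dox at 0 h, 2 to 6 at 24 h (2 without dox replicate 2), 2 to 6 at 48 h (6 without replicate 3 without dox, 5 without dox replicate 2), 1 to 2 at 120 h (1 without replicate 1 without dox or dox replicate 2), 0 to 3 in iMcam (3 without replicate 2 without dox), 7 to 11 for iCdh23 against iMyoD1 (7 without iMyoD1 replicate 1 or 2), 4 to 10 for iMcam against iMyoD1 (4 without iMyoD1 replicate 1) and 0 to 1 for the iCdh23 and iMcam interaction. At 0 h it was 0 only without replicate 1 without dox.

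The dox effect on Pcdhgc3 turned positive in 4 comparisons, none of which had passed. With the short Pcdhgc4 transcript counted to it the values were 0.13 at 48 h, 0.25 in the myotube-enriched fraction and 0.26 for the difference between fractions, and Pcdhgc4 from 24 to 48 h turned to −0.31. Over libraries left out, it lay between −0.33 and 0.087 at 48 h (highest without dox replicate 3), −0.94 and 0.15 in the myoblast-enriched (without dox replicate 2) and −1.04 and 0.20 in the myotube-enriched fraction (without dox replicate 1). For the difference between fractions it lay between −0.74 and 0.58, and was 0.24, 0.49, 0.15 and 0.58 without myotube-enriched replicate 1 without dox, that with dox, myoblast-enriched replicate 2 without dox and replicate 3 with dox. For the iCdh23 and iMcam difference (−1.34 to −0.94) the adjusted p exceeded the threshold without iCdh23 replicates 1 and 2 without dox, 2 and 3 with dox, iMcam replicate 1 without dox and 1, 2 and 3 with dox (0.0544 to 0.0809). In iMcam Pcdhgc3 passed with DESeq2 (adjusted p = 0.016), without the filter (0.0351) and with the short transcript counted to it (0.0411).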
